A study of Drosophila melanogaster with 36 samples.

Results

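The glutathione transferase genes described here are the 34 genes whose platform symbol is Gst followed by a class letter (D, E, O, S, T or Z) and a number, out of 11982 genes that have a probe set naming them alone. They comprise 11 delta, 13 epsilon, 3 omega, 1 sigma, 4 theta and 2 zeta genes, covered by 36 of 18769 probe sets. GstE9 and GstO2 had 2 probe sets each, and every gene was read from its probe set of highest mean intensity. Transcript levels came from Affymetrix one-colour arrays hybridised with RNA of whole Drosophila melanogaster embryos at 5 h and at 8 h. The embryos belonged to 9 isogenic lines, fly stocks bred to near uniformity of the genome, with 2 RNA samples per line and time. Array titles name the lines Drosophila_17, Drosophila_23, Drosophila_58, Drosophila_75, Drosophila_83, Drosophila_89, Drosophila_128, Drosophila_134 and Drosophila_145, and the plots label them by their number alone. No treatment, transgene, sex or parental stock was named for any of them. The title of 1 array at 5 h gave no line, so 35 arrays were compared, 17 at 5 h and 18 at 8 h, with line Drosophila_17 holding 1 array at 5 h. The labels do not state if paired RNA samples stem from separate collections of embryos, so p-values among lines reflect the spread between RNA samples, which may be technical.

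Glutathione transferases join the tripeptide glutathione to reactive or lipophilic compounds, which makes these compounds easier to export and less harmful. The delta and epsilon classes have expanded in insects, lie in gene clusters and are known for insecticide resistance and for induction under oxidative stress. The omega, sigma, theta and zeta classes are shared with vertebrates and take part in ascorbate and thiol reduction, the clearance of lipid peroxidation products and the breakdown of tyrosine.

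Intensities below are quantile normalised values in arbitrary units, and differences are on the log2(intensity + 16) scale, which understates the change of dim probe sets: 91.3% of all values lay under the added 16. The background limit of an array was the 99th percentile of 50 control probe sets, presumed from their names to be negative controls, and a gene is called measured here where at least 18 of the 36 arrays lay above it. Total deposited intensity ran from 46261 to 309710 per array. Pairs of RNA samples of 1 line and time correlated over measured probe sets with r from 0.916 to 0.979, where the median between lines at 1 time was 0.903; probe sets are not independent replicates. All 6 early zygotic markers and 3 of 4 maternal markers fell from 5 h to 8 h, where 5.05% of all genes did. Those that rose were 3 of 5 neural, 3 of 5 haemocyte, 2 of 4 muscle and 2 of 4 midgut markers. So did 1 of 4 fat body and 1 of 4 Malpighian tubule markers, where 4.62% of all genes rose. The gene srp counts in both the haemocyte and the midgut list. Of the yolk protein and eggshell markers of adult females 0 of 5 were measured. In RNA of whole embryos, fewer cells of a type and less RNA per cell cannot be told apart.

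Of the 34 transferases 17 were measured. These were 2 of 11 delta, 7 of 13 epsilon, 2 of 3 omega, 4 of 4 theta and 1 of 2 zeta genes and the sigma gene. Between 6 and 24 members lay above the limit on each array of a named line. GstD6, GstE2 and GstE14 were above it on none of these 35 arrays, where their highest intensities were 2.78, 2.07 and 2.18. GstE14 is the transferase of the prothoracic gland that is needed to make ecdysteroid hormones. GstO2, GstE13 and GstS1, the sigma enzyme that is abundant in adult flight muscle, lay above it on 17 of 17 arrays at 5 h and on 18 of 18 at 8 h. The other 9 delta genes, GstD2 to GstD8, GstD10 and GstD11, reached the limit on at most 8 of 17 arrays at 5 h and 5 of 18 at 8 h. Their median intensities ran from 0.196 in GstD2 to 2.40 in GstD3 at 5 h. The delta and epsilon genes are close relatives, and the sharing of signal between similar transcripts was not tested. Sequence differences between lines under a probe set were not tested either, and intensity cannot tell them apart from transcript levels.

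From 5 h to 8 h, 8 transferases changed: GstE3 and GstE9 rose, and GstT1, GstT3, GstE1, GstE13, GstO1 and GstE11 fell. Of all 11982 genes on the array 9.66% were called in either direction. By direction, 2 of 34 transferases were higher, where 4.62% of all genes were called higher, and 6 of 34 were lower, where 5.05% of all genes were called lower. Among measured genes of the whole array 19.7% were called in either direction. Only 17 of the 34 members were measured, and all of the 8 called but GstE9 were among them. The median change of the 34 members was -0.00 and that of all genes 0.00. The theta and epsilon classes held 7 of the 8 calls, the omega class 1, and the delta, sigma and zeta classes 0 by limma. Still, 2 of 11 delta and 2 of 2 zeta genes had an unadjusted p under 0.05, where 2899 of all 11982 genes did. They were GstD2, GstD8, GstZ1 and GstZ2, of which only GstZ1 was measured.

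GstT1, a theta transferase, gave the widest change of the family. Its intensity ran from 12.9 to 30.6 with a median of 23.2 over the 17 arrays at 5 h, and from 4.74 to 22.2 with a median of 10.4 over the 18 arrays at 8 h. The mean of the 9 lines went from 23.4 ± 3.64 to 12.0 ± 5.82 (SD, n = 9), a change of -0.51 ± 0.09 (SE; limma adjusted p = 0.00057). It was lower at 8 h in 9 of 9 lines, although the ranges of the 2 times overlapped. Lines Drosophila_83 and Drosophila_134 lost most, each by -0.87, with intensities of 27.2 and 20.9 against 6.65 and 5.08 in line Drosophila_83. In line Drosophila_75 the 5 h arrays at 13.6 and 27.1 enclosed the 8 h arrays at 16.0 and 17.2.

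GstT3, a theta gene on the X chromosome, went from 17.5 ± 3.72 to 10.7 ± 5.32 (SD, n = 9), a change of -0.34 ± 0.08 (SE; adjusted p = 0.0094), and was lower in 8 of 9 lines. Line Drosophila_17 was the exception, at 19.1 on its 5 h array and 23.8 and 19.6 on its 8 h arrays. The neighbour of GstT1 on chromosome arm 2R, GstT2, stood at -0.12 ± 0.05 (adjusted p = 0.20) and GstT4 at 0.12 ± 0.05 (adjusted p = 0.20), neither called. Thus 2 of 4 theta genes fell and none rose; the other theta genes had changes of opposite sign.

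**Figure D1:**
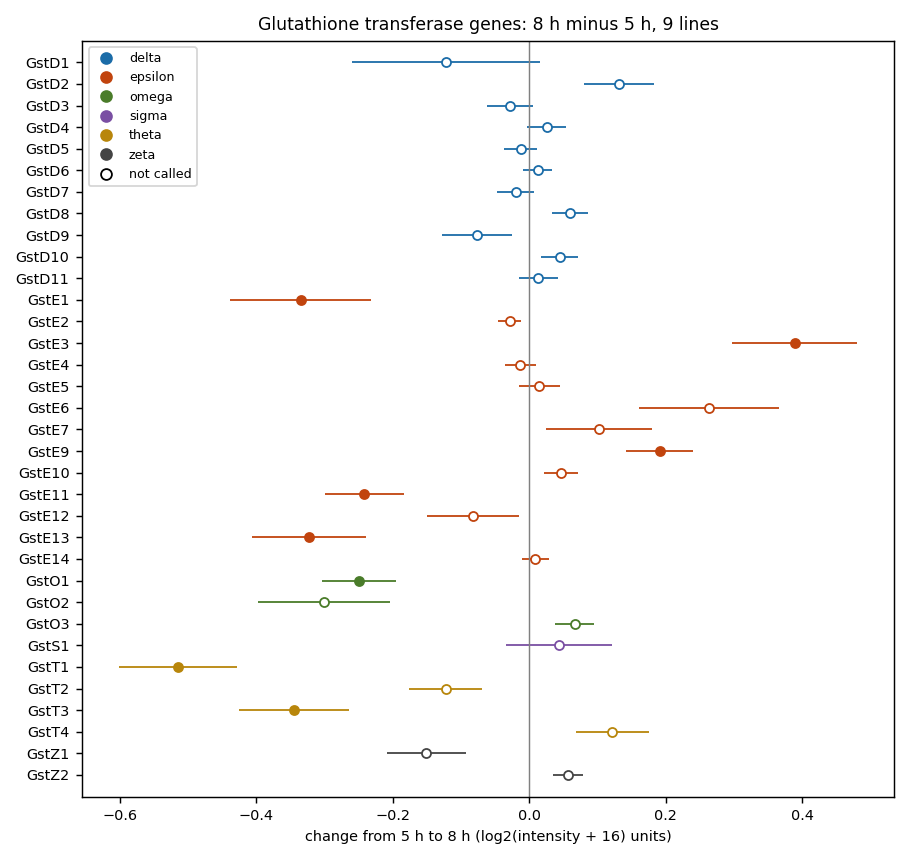
Change from 5 h to 8 h of the 34 glutathione transferase genes in log2(intensity + 16) units, as points with SE over 9 lines, coloured by class; filled points had an adjusted p under 0.05. GstT1 lies farthest to the left at -0.51 and GstE3 farthest to the right at 0.39, while the 11 delta genes are all open points.

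Of the omega class, whose enzymes reduce dehydroascorbate and act as thiol transferases, GstO1 fell. Its intensity was 2.51 to 11.7 (median 7.81) at 5 h and 0.0600 to 10.2 (median 3.02) at 8 h, a change of -0.25 ± 0.05 (SE; adjusted p = 0.0055), lower in 8 of 9 lines. At 5 h 16 of 17 arrays exceeded the limit, at 8 h 10 of 18. In line Drosophila_75 it stood at 6.80 and 9.69 at 5 h and at 8.61 and 10.2 at 8 h. GstO2, which lies next to GstO1 on arm 3L, was lower in 9 of 9 lines, from 41.5 ± 7.32 to 31.0 ± 8.53 (SD, n = 9). Its change of -0.30 ± 0.10 had adjusted p = 0.062 and was not called, whereas the second GstO2 probe set, dimmer at a median of 4.87 at 5 h, was called at -0.18 ± 0.05 (adjusted p = 0.021). GstO3 stood at 0.07 ± 0.03 (adjusted p = 0.18).

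Of the 13 epsilon genes 2 rose and 3 fell. GstE3, GstE9 and GstE1 belong to the epsilon cluster on arm 2R, which runs from GstE10 through GstE1 to GstE9. GstE11 and GstE13 lie elsewhere on that arm. GstE1, known as an enzyme induced by oxidative stress, fell from 23.9 ± 12.4 to 15.0 ± 5.92 (SD, n = 9), by -0.33 ± 0.10 (SE; adjusted p = 0.049). That call was the least secure: with 1 array or 1 line left out, GstE1 was called in 17 of 44 cases, with adjusted p up to 0.15.

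GstE13 fell from 21.5 ± 6.56 to 14.0 ± 5.07 (SD, n = 9), by -0.32 ± 0.08 (adjusted p = 0.019), and was lower in 7 of 9 lines. The exceptions were line Drosophila_17, at 23.2 on its 5 h array against 22.7 and 23.8, and line Drosophila_75, at 17.2 and 10.6 against 15.3 and 13.3. The call was lost without line Drosophila_58, line Drosophila_83 or line Drosophila_134, with adjusted p up to 0.070. GstE11 fell from 6.92 ± 4.55 to 3.19 ± 1.69 (SD, n = 9), by -0.24 ± 0.06 (adjusted p = 0.012), lower in 8 of 9 lines, with 15 of 17 arrays over the limit at 5 h and 9 of 18 at 8 h.

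GstE3 was the transferase with the largest rise. Its intensity ran from 0.0838 to 11.4 (median 2.19) at 5 h and from 0.265 to 87.4 (median 6.43) at 8 h, a change of 0.39 ± 0.09 (SE; adjusted p = 0.010). It was higher at 8 h in 9 of 9 lines, but the times overlapped widely and 7 of 17 arrays exceeded the limit at 5 h and 11 of 18 at 8 h. Line Drosophila_58 stood apart at 5 h with 9.20 and 11.4 and reached 13.9 and 21.2 at 8 h. Line Drosophila_128 changed most, by 1.40, through 1 RNA sample at 87.4 beside its partner at 2.85; without that partner the adjusted p of GstE3 was 0.065.

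GstE9 went from a median of 0.399 at 5 h, with 1 of 17 arrays above the limit, to a median of 2.49 at 8 h, with 9 of 18 above it. Its change was 0.19 ± 0.05 (SE; adjusted p = 0.017), higher in 8 of 9 lines, and line Drosophila_83 stayed between 0.148 and 0.281 at both times. The second GstE9 probe set was above the limit on 0 of 17 and 1 of 18 arrays and stood at 0.02 ± 0.02 (adjusted p = 0.68). Their cluster neighbours GstE6 and GstE7 had values of 0.26 ± 0.10 (adjusted p = 0.14) and 0.10 ± 0.08 (adjusted p = 0.53), not called.

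**Figure D2:**
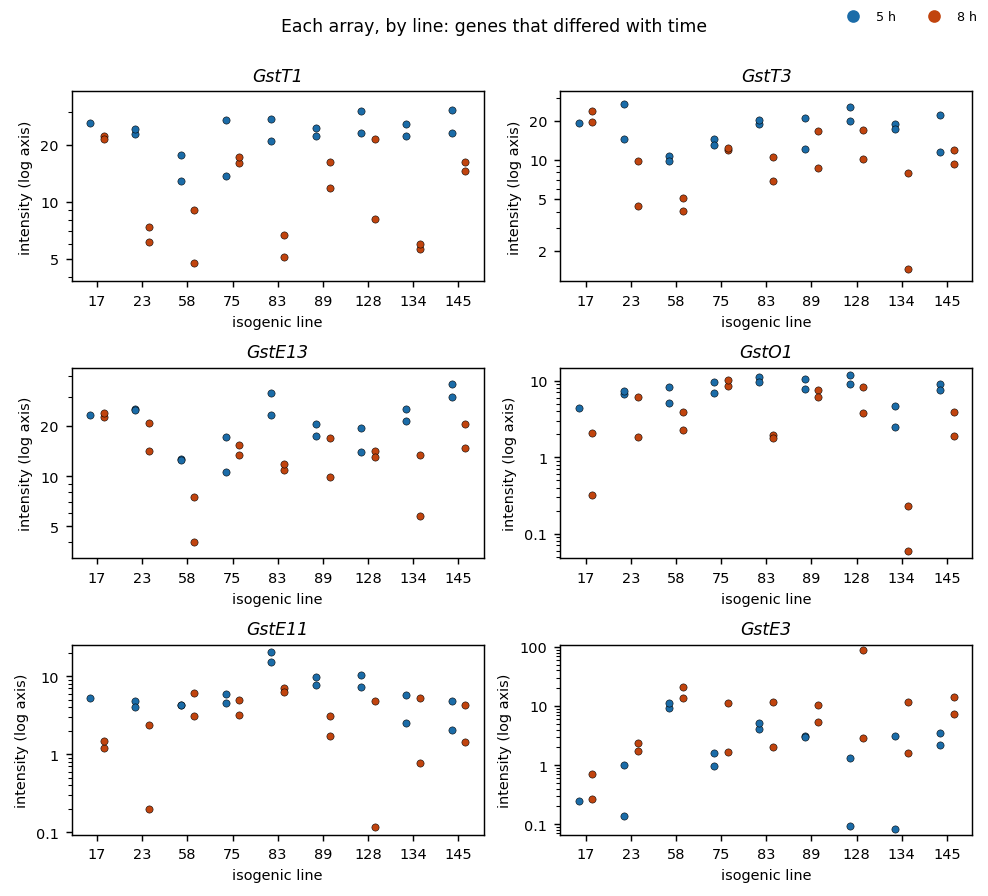
Intensity on each array, on a log axis, by isogenic line for 6 of the genes that differed between the times, with 5 h in blue and 8 h in orange. GstT1 is lower at 8 h on average in every line, GstO1 in all lines but Drosophila_75, and GstE3 reaches 87.4 on 1 array of line Drosophila_128.

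Of the other classes, the sigma gene GstS1 was not called, at 15.8 ± 4.82 and 16.9 ± 5.44 (SD, n = 9), with a change of 0.04 ± 0.08 (SE; adjusted p = 0.82). GstZ1, which encodes the maleylacetoacetate isomerase of tyrosine breakdown, stood at -0.15 ± 0.06 (adjusted p = 0.13), lower in 7 of 9 lines. GstD1, the delta enzyme known for degrading DDT, went from 46.3 ± 39.3 to 42.6 ± 37.1 (SD, n = 9), with a change of -0.12 ± 0.14 (adjusted p = 0.70), up in 4 lines and down in 5. Its SD over the lines was nearly as large as its mean.

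The 2 times also differed in brightness and in developmental markers. Total intensity had a median of 182362 at 5 h and 124675 at 8 h and was lower at 8 h in 7 of 9 lines. The maternal markers summed to 40.0 to 230.3 at 5 h and 13.8 to 209.5 at 8 h, and the early zygotic markers to 53.2 to 832 and 10.7 to 150.3. With brightness as a covariate, limma called 0 of the 34 transferases (8 had an unadjusted p under 0.05) and 22 of 11982 genes. The 8 changes kept their signs, at -0.41 for GstT1, -0.28 for GstT3, -0.33 for GstE1, -0.33 for GstE13, -0.23 for GstO1, 0.32 for GstE3 and 0.15 for GstE9, while GstE11 went from -0.24 to -0.09. The scaling moved the split. On the deposited scale 2 rose and 12 fell, where 2.10% of all genes rose and 21.4% fell. With arrays divided by their medians 2 rose and 10 fell, where 2.43% and 18.3% of all genes did. At a common 90th percentile 7 rose and 7 fell, where 8.55% and 3.94% did. Measured genes as a whole shifted by -0.19, -0.17 and -0.00 in these settings and by -0.04 after quantile normalisation. The 8 called genes kept their direction in all 4. The part of brightness and of developmental markers in these changes was not tested further.

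Other genes were read from lists, called glutathione-related here, of synthesis, thiol and thioredoxin redox, cnc and Keap1 regulators, other transferase-fold proteins and efflux pumps. Of 29 listed genes 27 were on the array under 1 symbol and 23 were measured. Of the 27, 0 rose and 5 fell by limma, where 4.62% of all genes rose and 5.05% fell, and 19.7% of measured genes were called in either direction. Of the 5 that fell, 4 were on the thiol redox list and 1, Ggt-1, on the synthesis list. Gtpx, a gene of the glutathione peroxidase family, fell from 47.1 ± 10.3 to 22.9 ± 12.2 (SD, n = 9). Its change was -0.74 ± 0.13 (limma adjusted p = 0.00078). Glo1, the glyoxalase that uses glutathione to clear methylglyoxal, fell by 0.60 ± 0.10 and the mitochondrial peroxiredoxin gene Prx3 fell by 0.54 ± 0.11. Ggt-1, a gamma-glutamyl transpeptidase, fell by 0.47 ± 0.10 and Trxr1, the thioredoxin reductase that stands in for glutathione reductase in flies, fell by 0.46 ± 0.08. The synthesis genes Gclc (-0.09), Gclm (0.04), Gs1 (-0.16) and Gs2 (0.12) were not called, nor were cnc, Keap1 and maf-S, the transcription factor that induces transferases under oxidative stress, its inhibitor and its binding partner, at 0.10, -0.02 and 0.00. The efflux pump genes MRP and Mrp4 stood at -0.03 and 0.00.

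Among the 9 lines, 16 of 34 transferases differed over both times, where 25.0% of all genes and 50.8% of measured genes did. They were GstD1, GstD9, GstE1, GstE7, GstE9, GstE11, GstE13, GstO1, GstO2, GstO3, GstS1, GstZ1 and the 4 theta genes. Only 17 of the 34 members were measured, and all of the 16 but GstE9 and GstO3 were among them. The share of measured genes is thus to be set beside these measured members, not beside all 34. At 5 h 7 differed, where 9.46% of all genes did, and at 8 h 15, where 23% did. Members at 5 h were GstD1, GstE1, GstE7, GstE11, GstE13, GstT2 and GstZ1; GstE6 and GstE12 were called at 8 h alone. Whether the change from 5 h to 8 h differed between lines was tested directly: limma called 0 of 34 beside 1.71% of all genes, and 7 of 34 had an unadjusted p under 0.05, where 14.6% of all genes did. Without 1 array, the call over both times was lost for GstD9 (adjusted p = 0.092 without the second 5 h sample of line Drosophila_83), GstE9 (0.21 without the second 8 h sample of line Drosophila_128), GstO3 (0.05 without the first 5 h sample of line Drosophila_83), GstT1 (0.052 without the second 8 h sample of line Drosophila_58), GstT2 (0.11 without the second 8 h sample of line Drosophila_134) and GstT3 (0.09 without the first 8 h sample of line Drosophila_58). With brightness as a covariate it was lost for GstE9 (adjusted p = 0.057) and GstT2 (adjusted p = 0.59).

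Some calls at single times were less secure. At 5 h GstE7 was called in 21 of 53 settings, not with the sample number as a block, and at adjusted p = 0.92 with brightness as a covariate. GstE13 and GstT2 at 5 h were also lost with brightness (adjusted p = 0.21 and 0.71). Without 1 array the 5 h calls of GstE7 (0.16, second 5 h sample of line Drosophila_145), GstE13 (0.059, the same sample) and GstT2 (0.18, first 5 h sample of line Drosophila_89) were lost. At 8 h those of GstE1 (0.053, first 8 h sample of line Drosophila_83), GstE12 (0.16) and GstE13 (0.066, both the second 8 h sample of line Drosophila_58) and GstZ1 (0.055, first 8 h sample of line Drosophila_75) were lost. Those of GstS1 (0.058, first 8 h sample of line Drosophila_23) and GstT3 (0.058, first 8 h sample of line Drosophila_17) were lost too, as were GstE9 and GstO2 without an array of line Drosophila_128 that is described further on.

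Tests of each line against the other 8 placed these differences, with 27 gene and line pairs of 16 genes called, where 4.78% of the pairs of all genes were. Line Drosophila_58 had 8 of 34 members called (10.7% of all genes), line Drosophila_75 had 3 (11.0%), line Drosophila_83 had 6 (1.00%), line Drosophila_128 had 5 (2.89%), line Drosophila_134 had 2 (7.89%) and line Drosophila_145 had 3 (3.19%). Lines Drosophila_17, Drosophila_23 and Drosophila_89 had 0, where 1.14%, 1.17% and 4.02% of all genes were called. Line Drosophila_83 thus had a share of members called of 17.6% beside 1.00% of all genes, and line Drosophila_75 a share of 8.82% beside 11.0%.

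**Figure D3:**
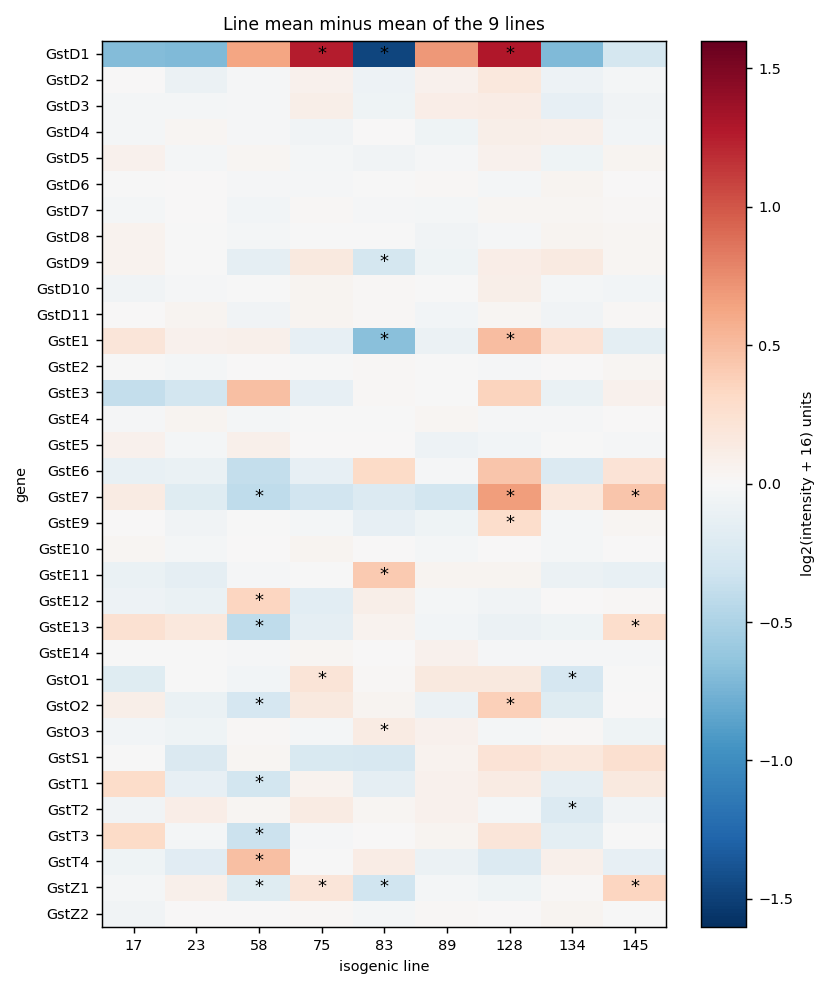
Mean of each line over both times minus the mean of the 9 lines, in log2(intensity + 16) units, for the 34 genes, with red above and blue below; stars mark the 27 pairs in which a line differed from the other 8. GstD1 spans the widest range, from dark blue in line Drosophila_83 to dark red in lines Drosophila_75 and Drosophila_128, and most delta genes are near white in all lines.

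GstD1 differed most among lines, over a span of 2.75 from 4.08 in line Drosophila_83 to 6.83 in line Drosophila_128 (adjusted p = 1.2e-06). At 5 h the arrays of line Drosophila_83 read 0.746 and 0.269 and at 8 h 2.29 and 0.347, with 1 of 4 above the limit. The 31 arrays of the other lines ran from 0.986 to 141 with a median of 50.7, and 27 of them exceeded every array of line Drosophila_83. Line Drosophila_83 stood at -1.65 ± 0.28 against the other 8 (SE; adjusted p = 0.0012).

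At the other end, line Drosophila_128 read 119 and 74.6 at 5 h and 109.7 and 92.2 at 8 h (1.45 ± 0.28, adjusted p = 0.0023). Line Drosophila_75 read 117 and 98.5 at 5 h and 88.7 and 78.8 at 8 h (1.41 ± 0.28, adjusted p = 0.00071). These 8 arrays were all above the limit, and of the 27 arrays of the other 7 lines 1, from line Drosophila_89 at 8 h at 141, reached their range. The values of line Drosophila_75 came with total intensities of 212329 to 266525, and with brightness as a covariate line Drosophila_75 was no longer called for GstD1 (adjusted p = 0.69), while lines Drosophila_83 and Drosophila_128 were (adjusted p = 0.00051 and 0.00065).

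GstD1 also separated RNA samples of 1 line. In line Drosophila_145 the samples read 67.7 and 0.986 at 5 h and 50.7 and 6.52 at 8 h. In line Drosophila_89 they read 13.8 and 141 at 8 h against 68.1 and 65.9 at 5 h, and in line Drosophila_23 they read 29.2 and 1.43 at 8 h. These 4 pairs differed by more than 1 on the log2 scale, and GstD1 was the transferase of widest difference in each of them. Line Drosophila_83 was low in both samples at both times, whereas the arrays of lines Drosophila_17, Drosophila_23, Drosophila_134 and Drosophila_145 ran from 0.986 to 67.7.

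The transferases of line Drosophila_83 moved in both directions, with 4 of the 6 called genes lower and 2 higher. GstE1 read 7.64 and 6.94 at 5 h and 1.66 and 5.59 at 8 h in line Drosophila_83, and 4.91 to 50.9 with a median of 19.3 in the others. All but 1 of the 31 other arrays, an 8 h array of line Drosophila_145, were above the highest of line Drosophila_83, and the difference was -0.76 ± 0.10 (SE; adjusted p = 4e-05). GstD9, which lies next to GstD1 on arm 3R, was also lower, at 0.342 to 3.20 against 1.88 to 11.5 (-0.32 ± 0.08, adjusted p = 0.040), and was called in 30 of 52 settings.

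GstZ1 was above the limit on 0 of 4 arrays of line Drosophila_83, at 0.675 and 0.506 at 5 h and 0.844 and 0.176 at 8 h, and on 27 of the 31 others, which ran from 1.10 to 15.4. The groups did not overlap. Counting line Drosophila_83 at its arrays' background, the other lines were at least 2.01-fold higher (adjusted p = 0.0014), with measured log2 means of 2.15 and -1.08 without an added constant.

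GstE11 ran the other way. It was highest in line Drosophila_83, at 20.3 and 15.4 at 5 h and 6.97 and 6.25 at 8 h, against 0.117 to 10.4 with a median of 4.24 in the other lines (0.47 ± 0.07, adjusted p = 0.00021). Both 5 h arrays of line Drosophila_83 were above all others, and at 8 h they were the highest of the 18 arrays. GstO3 was higher as well, at 1.98 to 3.43 against a median of 0.581 (0.15 ± 0.04, adjusted p = 0.032), with 3 of 4 arrays above the limit, and was called in 39 of 51 settings.

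The values of GstD1, GstE1, GstZ1 and GstE11 in line Drosophila_83 were called in 52 of 52 settings, the brightness covariate and each left-out array among them. Line Drosophila_83 had total intensities of 92547 to 185356, within the range of the other lines. Of the maternal, early zygotic, neural, muscle, haemocyte, fat body, midgut, Malpighian tubule and adult female markers, 0 were called for line Drosophila_83, where 1.00% of all genes were. The fat body marker apolpp, the precursor of the main lipid carrier of the haemolymph, stood 1.16 higher there (adjusted p = 0.056). The other fat body markers Fbp1, Lsp2 and svp stood at 0.00, 0.00 and -0.06 there, and apolpp was the only 1 of the 4 that was measured. The 4 summed to 42.3 to 207 in line Drosophila_83, which included the highest of the 18 sums at 8 h. The part of these markers in its transferase values was not tested. Of the 27 genes on the glutathione-related lists 2 were called for line Drosophila_83, both higher. They were Cbs, which feeds cysteine into glutathione synthesis (0.66, adjusted p = 3.7e-05), and the glutaredoxin gene Grx1 (0.48, adjusted p = 0.00014).

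**Figure D4:**
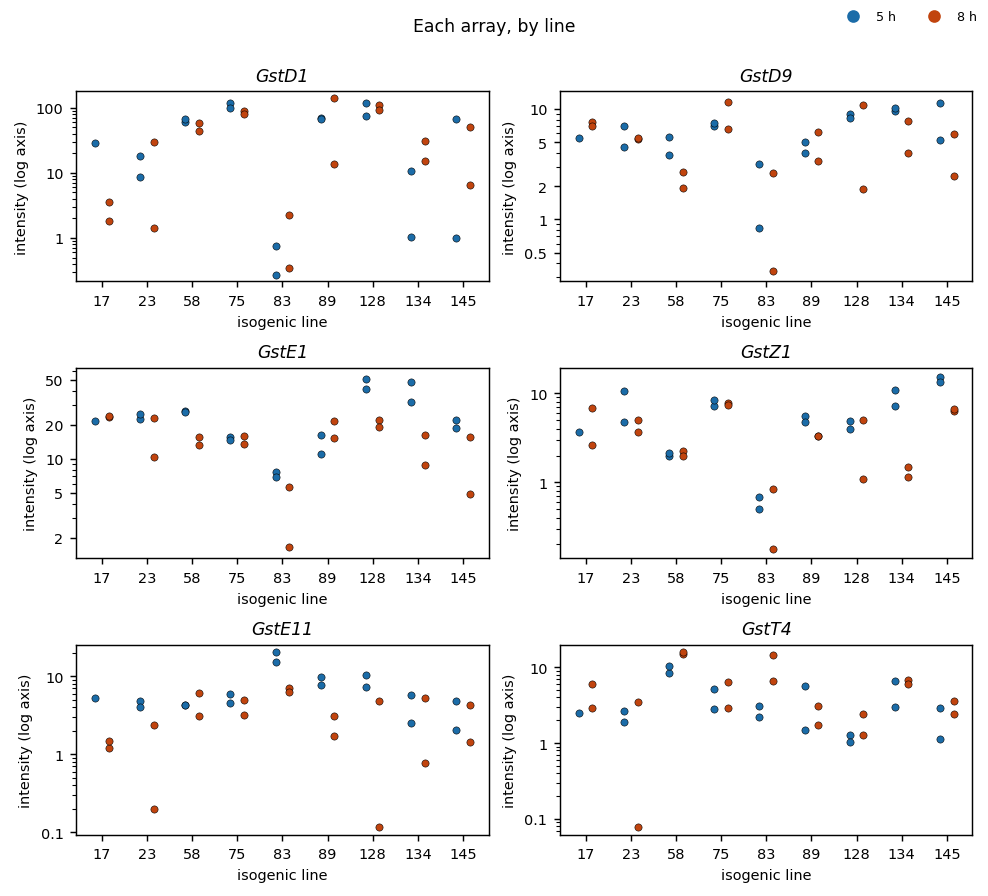
Intensity on each array, on a log axis, by isogenic line for 6 transferases that set a line apart, with 5 h in blue and 8 h in orange. All 4 arrays of line Drosophila_83 are at or near the bottom for GstD1, GstD9, GstE1 and GstZ1 and near the top for GstE11, and line Drosophila_58 is highest for GstT4.

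In line Drosophila_58, GstE12 and GstT4 were higher and GstE7, GstE13, GstO2, GstT1, GstT3 and GstZ1 lower than in the other 8 lines. GstT4 read 8.32 and 10.5 at 5 h and 14.8 and 15.9 at 8 h, against 0.0777 to 14.4 with a median of 2.91 elsewhere (0.54 ± 0.07, adjusted p = 1.5e-06). Of the other 31 arrays 30 were below the lowest of line Drosophila_58; the exception was an 8 h array of line Drosophila_83 at 14.4. GstE12 read 11.0 and 12.5 at 5 h and 16.9 and 20.4 at 8 h (0.38 ± 0.09, adjusted p = 0.0034), and was not called without the second 8 h sample (adjusted p = 0.060).

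GstE7 was above the limit on 0 of 4 arrays of line Drosophila_58, at 0.0848 to 1.76, and on 22 of the 31 others, whose median was 6.41. The mean of the other lines was at least 2.76-fold higher, with overlapping ranges and log2 means of 2.23 and -1.53 without an added constant. That fold does not hold for each line: line Drosophila_75 read 0.183 and 1.19 at 5 h and 2.77 and 3.39 at 8 h. The contrast on the log2(intensity + 16) scale was -0.46 ± 0.12 (SE, limma adjusted p = 0.0088). GstE13 was low at 12.7 and 12.6 at 5 h and 7.48 and 4.03 at 8 h (-0.46 ± 0.09, adjusted p = 0.00044). GstT1 and GstT3, which fell with time in the embryos as a whole, stood at -0.33 ± 0.09 (adjusted p = 0.020) and -0.38 ± 0.10 (adjusted p = 0.0088), GstO2 at -0.30 ± 0.10 (adjusted p = 0.041) and GstZ1 at -0.21 ± 0.06 (adjusted p = 0.025).

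Markers of development were also called for line Drosophila_58, where 10.7% of all genes were. They were 5 of 6 early zygotic, 4 of 5 neural and 2 of 4 midgut markers. Also called for this line were 2 of 5 haemocyte, 1 of 4 maternal and 1 of 4 fat body markers. Their part in its transferase values was not tested. GstT4 was called in 52 of 52 settings. GstE13, GstO2, GstT1, GstT3 and GstZ1 lost their calls on the deposited scale, with adjusted p of 0.15, 0.84, 0.54, 0.29 and 0.17, and without single arrays of line Drosophila_58 the adjusted p of GstE7, GstT1, GstT3, GstO2 and GstZ1 reached 0.090, 0.27, 0.077, 0.59 and 0.15. With brightness as a covariate GstE7 and GstO2 were not called (adjusted p = 0.27 and 0.15).

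In line Drosophila_128 the 5 called transferases were all higher: GstD1, GstE1, GstE7, GstE9 and GstO2. GstE1 read 41.7 and 50.9 at 5 h and 22.1 and 19.3 at 8 h (0.55 ± 0.10, adjusted p = 0.00096). GstE7 read 3.77 and 18.5 at 5 h and 18.02 and 51.0 at 8 h, against a median of 2.91 elsewhere (0.76 ± 0.12, adjusted p = 0.00018), and was called in 52 of 52 settings. GstO2 read 56.5 and 54.1 at 5 h and 43.8 and 49.5 at 8 h (0.43 ± 0.10, adjusted p = 0.0097, and up to 0.084 without 1 array or 0.075 with brightness as a covariate). GstE1, GstE9 and GstO2 were not called on the deposited scale (adjusted p = 0.31, 0.12 and 0.91), where line Drosophila_128 had total intensities of 56832 to 182362. With the mean over a gene's probe sets, GstE9 and GstO2 lost their calls for this line and among lines at 8 h.

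The second RNA sample of line Drosophila_128 at 8 h, called sample 2 here, held the highest intensity of the 18 arrays at 8 h for 10 of the 34 transferases, where it did so for 8.00% of all genes. They included 4 genes of the epsilon cluster. GstE3 read 87.4 beside 2.85 in the partner sample and at most 21.2 in the other lines, GstE6 76.3 beside 7.40 and at most 28.1, GstE7 51.0 beside 18.02 and at most 22.2, and GstE9 15.9 beside 5.98 and at most 5.63. GstO2 was highest as well, and so were the delta genes GstD2, GstD4, GstD7, GstD10 and GstD11, none of these delta genes measured. GstD2 read 18.6 beside 0.206, GstD4 7.78 beside 0.110, GstD10 7.11 beside 0.0827 and GstD11 4.32 beside 0.103. GstD9 read 10.9 beside 1.88 and at most 11.5 in the other lines. Some other delta and epsilon genes were not raised there: GstE1 read 19.3 beside 22.1, GstE5 0.0795 beside 0.0869 and GstD1 92.2 beside 109.7.

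This array had the lowest correlation with its partner, 0.916, where the median of the 17 pairs was 0.955, and a total intensity of 56832 beside 90944. Its 4 fat body markers, of which only 1 (apolpp) was measured, summed to 133 beside 22.5 in the partner, within the 8 h range of 8.25 to 207. Its 5 adult female markers, 0 of them measured, summed to 8.31 beside 5.22, the highest sum of the 18 arrays at 8 h. The sum of cnc, Keap1 and maf-S was also the highest at 8 h, at 92.9 beside 47.8. The part of these differences in its transferase values was not tested. Without sample 2, GstE9 was no longer called among lines over both times (adjusted p = 0.21), at 8 h (adjusted p = 0.075) or for line Drosophila_128 (adjusted p = 0.18). GstO2 was lost as well at 8 h (adjusted p = 0.051) and for line Drosophila_128, but not over both times (adjusted p = 0.02). GstE7 was still called over both times (adjusted p = 1.2e-05) and GstE6 at 8 h (adjusted p = 0.028). Without sample 1, the count of transferases that differed over both times was 22 and that at 8 h 21.

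**Figure D5:**
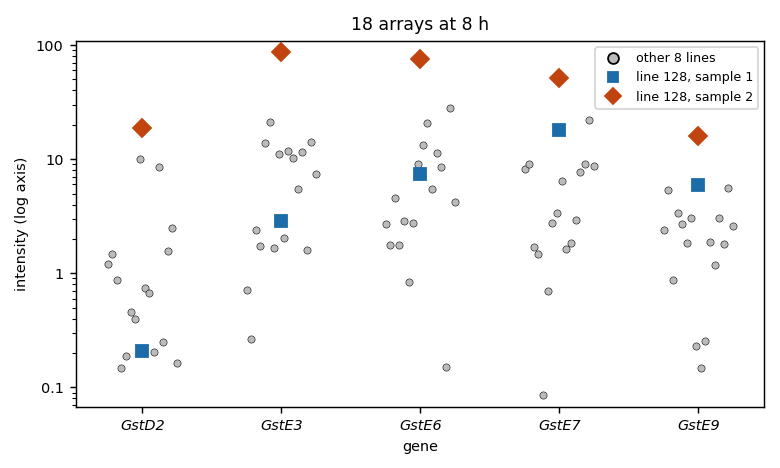
Intensity on a log axis of 5 transferases on the 18 arrays at 8 h, with the RNA samples of line Drosophila_128 as a blue square and an orange diamond and the other 8 lines in grey. Sample 2 is above every other array for all 5 genes, and sample 1 lies among the other lines for GstD2, GstE3, GstE6 and GstE7.

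In line Drosophila_145, GstE7, GstE13 and GstZ1 were higher. GstZ1 read 15.4 and 13.3 at 5 h and 6.30 and 6.65 at 8 h (0.38 ± 0.06, adjusted p = 0.00030), and the lines thus spanned 0.66 for GstZ1 from line Drosophila_83 to line Drosophila_145. GstE7 stood at 0.49 ± 0.12 (adjusted p = 0.015, and up to 0.18 without 1 array or 0.43 with brightness as a covariate). GstE13 stood at 0.32 ± 0.09 (adjusted p = 0.038), but at -0.03 on the deposited scale, and its adjusted p reached 0.28 without 1 array and 0.43 with brightness. GstZ1 was not called for line Drosophila_145 on the deposited scale (adjusted p = 0.39). In line Drosophila_75, beside GstD1, GstO1 (0.23 ± 0.06, adjusted p = 0.018) and GstZ1 (0.22 ± 0.06, adjusted p = 0.017) were higher. Their adjusted p reached 0.22 and 0.14 without 1 array, and 0 transferases were called for that line with brightness as a covariate.

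In line Drosophila_134, the dimmest line at 46261 to 110030, GstO1 and GstT2 were lower. GstO1 read 2.51 and 4.66 at 5 h and 0.227 and 0.0600 at 8 h (-0.31 ± 0.06, adjusted p = 0.0026). GstT2 was above the limit on 0 of 4 arrays, at 0.106 to 1.77, against 23 of 31 elsewhere (adjusted p = 0.0082), and its background there was too high for a fold to be given. Without 1 array of line Drosophila_134, GstT2 reached adjusted p = 0.098, and neither gene was called with brightness as a covariate (adjusted p = 0.33 and 0.58). Markers called for line Drosophila_134 were 3 of 4 maternal and 3 of 6 early zygotic genes, for line Drosophila_75 4 of 4 and 5 of 6, for line Drosophila_145 0 of 4 and 4 of 6 and for line Drosophila_128 0 of 4 and 0 of 6. Of the other marker lists, 1 muscle and 1 Malpighian tubule marker were called for line Drosophila_134, 3 of 5 neural and 1 Malpighian tubule marker for line Drosophila_75, 1 of 5 adult female markers for line Drosophila_128 and 0 for line Drosophila_145. Of all genes 7.89% were called for line Drosophila_134, 11.0% for line Drosophila_75, 3.19% for line Drosophila_145 and 2.89% for line Drosophila_128. The part of these markers in the transferase values was not tested.

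GstS1 differed among lines without setting any line apart from the rest. Its line means spanned 0.51, from 4.74 in line Drosophila_83 to 5.25 in line Drosophila_145 (adjusted p = 0.0028), and the neighbouring lines Drosophila_23, Drosophila_75 and Drosophila_83 at 4.77, 4.76 and 4.74 lay close together. It was above the limit on all 35 arrays, between 7.57 and 30.3. GstE6 differed at 8 h (adjusted p = 0.019) and GstE12 too (adjusted p = 0.012). The 15 genes called in no test were the 9 dim delta genes, GstE2, GstE4, GstE5, GstE10, GstE14 and GstZ2; they spanned 0.05 to 0.26 among lines, and none was measured.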

How the data were processed

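Total RNA of embryos was extracted with TRIzol, labelled by the Affymetrix one-cycle protocol and hybridised to 36 arrays, per the labels' protocols. The deposited values are linear intensities of 18952 probe sets per array. Software, scaling and genome build are not given in the sources used. The 183 control probe sets were left out, and no column of another sample was present.

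Intensities were quantile normalised over the 18769 remaining probe sets and taken as log2(intensity + 16). Models were fitted with R 4.3.3 and limma 3.58.1, with a variance prior that follows intensity and Benjamini-Hochberg adjustment over all 18769 probe sets, called at an adjusted p of 0.05. Times were compared over 18 means of line and time with the line as a block (8 residual degrees of freedom). Lines were compared on single arrays with 1 mean per group (17 residual degrees of freedom), by moderated F tests and by contrasts of each line with the other 8. A fold is given as "at least" where no array of a line was above background, with the dim line set at the higher of its own signal and the lowest signal above background on that array. The script for the fits was run on simulated data, with changes planted in bright probe sets only and no brightness differences between arrays. That run does not cover changes in dim members. Beyond the quantile normalisation, array brightness was not corrected for in the main fits, and the number of arrays limits the precision.

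Gene names came from the platform annotation, where 13647 probe sets carried 1 symbol and 402 several. All 34 members matched the RefSeq gene table, which gave chromosome arms and neighbouring genes. Values are given for members called in any test, for the brightest member of a class and, as ranges, for the rest. Of the genes on the glutathione-related lists those called for time are named. Cbs and Grx1 in line Drosophila_83, and the array of line Drosophila_128, were singled out after their values were seen. The family and the gene lists were chosen with earlier results of these data known.

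Sample numbers were checked for pairing: deviations of same-numbered arrays at 5 h and 8 h correlated between -0.39 and 0.28 over 8 lines, above 0.1 in 3, so the numbers were not taken to pair samples. Alternatives were the deposited scale, scaling by the median and by the 90th percentile, pseudocounts of 4 and 64, measured probe sets alone, array brightness as a covariate, the sample number as a block, the mean over a gene's probe sets, and each array and each line left out.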

Additional observations from a re-analysis of the deposited data

Results flagged for a closer look

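Among the 9 line means of each transferase at each time, 6 of 68 groups held a line that lay far from the others by Dixon's test for an outlying value. The nominal rate of that test, for independent normal values, is about 1 in 20 groups. It may not hold here, since each gene enters at both times and many means lie near background. All values are means on the log2(intensity + 16) scale, and in each case the line was high.

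At 5 h, GstE11 stood at 5.08 in line Drosophila_83 beside 4.28 to 4.63 in the other 8 lines. At 5 h, line Drosophila_58 was high for GstT4, at 4.67 beside 4.10 to 4.37, and for GstE3, at 4.72 beside 4.02 to 4.37. At 8 h, GstE9 stood at 4.73 in line Drosophila_128 beside 4.02 to 4.33. GstD4 reached 4.22 in line Drosophila_134 at 5 h beside 4.01 to 4.07, through 1 sample at 5.54 with its partner at 0.199. GstE4 reached 4.18 in line Drosophila_23 at 8 h beside 4.01 to 4.10, through 1 sample at 3.76 with its partner at 0.636.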

How the results depend on the processing

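Among 53 alternative settings, none turned the direction of a called time change. The 8 transferases called for time became 14 on the deposited scale, 14 at a common 90th percentile and 0 with array brightness as a covariate. The 7 called among lines at 5 h became 12 on the deposited scale and 4 with brightness. The 27 gene and line pairs became 41 on the deposited scale and 17 with brightness. For line by time, the count of 0 became 1 on the deposited scale, with median scaling, at the 90th percentile, with a pseudocount of 64 and with measured probe sets alone. With 1 array or 1 line left out, the counts ran from 6 to 9 for time, 11 to 22 for lines over both times, 5 to 8 at 5 h, 12 to 21 at 8 h, 0 to 5 for line by time and 17 to 40 for single lines. The upper ends of all but the first and the third came from leaving out the first 8 h sample of line Drosophila_128. With the sample number as a replicate block the counts were 10 for time, 16 over both times, 6 at 5 h, 15 at 8 h, 0 for line by time and 27 for single lines. Without its array at 5 h, line Drosophila_17 dropped out of all tests but that of lines at 8 h. The causes of these shifts were not tested. The 17 transferases that were not measured have levels near background, which these arrays do not resolve.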

Other observations

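The array at 5 h whose title names no line was used in no comparison. After the same normalisation it read 4.65 for GstD1, 44.4 for GstE1, 29.1 for GstE13, 52.1 for GstO2, 15.7 for GstS1, 15.1 for GstT1, 8.66 for GstZ1 and 1.33 for GstE11. The 17 named arrays at 5 h ran from 0.269 to 119 for GstD1, from 6.94 to 50.9 for GstE1, from 28.5 to 56.5 for GstO2, from 12.9 to 30.6 for GstT1 and from 0.506 to 15.4 for GstZ1, so it lay within their ranges for these 5 genes. Its GstE11 value was below the range of 2.02 to 20.3.

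Transferases that are neighbours on a chromosome were not always called in the same lines. GstT1 and GstT2, adjacent on arm 2R, were lower in lines Drosophila_58 and Drosophila_134 respectively. GstZ1 was called in 4 lines, while its neighbour GstZ2 on arm 3R was not measured. GstO1 was higher in line Drosophila_75 and lower in line Drosophila_134, and GstO2, beside it on arm 3L, was higher in line Drosophila_128 and lower in line Drosophila_58. GstD9 and GstD1, adjacent on arm 3R, were both lower in line Drosophila_83, but of the 2 only GstD1 was called in lines Drosophila_75 and Drosophila_128. No test of sharing between neighbours was made.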
